A study of Mus musculus with 22 samples.

Results

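Il1b-high tumours were set against Il1b-low tumours among 22 colon tumours that azoxymethane, a colon carcinogen, had induced in mice. All 22 tumours were ranked by the array level of Il1b, and the groups were chosen by that level, as the 7 highest and the 7 lowest, so 14 of 22 tumours entered the comparison and 8 lay between. The groups were therefore made from Il1b itself on the same arrays: its own difference is a description with no test, and each test of another gene speaks of its association with Il1b over these tumours. All mice were male and of strain FVB/N, and every tumour, in every regimen, was a carcinogen-induced one; no normal colon and no tumour without the carcinogen was compared. The regimens were obese mice on a high-fat diet (60% of kcal from fat) given sulindac, an anti-inflammatory inhibitor of cyclooxygenases (6 tumours), obese mice on the same diet without sulindac (5 tumours), formerly obese mice moved from the high-fat to a low-fat diet without sulindac (5 tumours), and control mice on a low-fat diet (10% of kcal from fat) without sulindac (6 tumours). The labels give no age, dose or interval, and nothing ties a tumour to a litter or batch; each mouse number occurs once. Total RNA of each tumour was measured on a Clariom S array with 22203 probe sets, of which 1 belongs to Il1b and 22202 were tested. The deposited levels run from 3.34 to 19.49 and are read here as log2 intensities; the median of an array lay between 6.67 and 6.83, and precision is set by the number of arrays.

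Il1b encodes interleukin-1β, a cytokine made mostly by monocytes, macrophages and neutrophils. It is made as an inactive precursor under NF-kB control, cut by caspase-1 in inflammasomes, and acts through the receptor Il1r1, while the antagonist Il1rn and the decoy receptor Il1r2 hold it back. In the gut it makes epithelial and stromal cells release chemokines that call neutrophils through the receptor Cxcr2. An array of a whole tumour piece reads messenger RNA, not the cut cytokine, and fewer cells of a type and less RNA per cell cannot be told apart in it.

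Among Il1b-high tumours the Il1b level was 13.61 in obese sulindac Mouse_114, 12 in control Mouse_30, 11.79 in obese sulindac Mouse_129, 11.77 in obese Mouse_96, 11.51 in obese Mouse_107, 11.11 in control Mouse_27 and 11.09 in formerly obese Mouse_140. Among Il1b-low tumours it was 9.39 in control Mouse_17, 9.14 in obese sulindac Mouse_131, 8.91 in control Mouse_20, 8.71 in obese sulindac Mouse_125, 8.34 in formerly obese Mouse_150, 8.19 in control Mouse_26 and 6.83 in obese sulindac Mouse_X. The highest and the lowest level of the series were thus both from obese mice given sulindac. The group means were 11.84 ± 0.85 in Il1b-high and 8.50 ± 0.85 in Il1b-low tumours (SD, n = 7 each), a difference of 3.34 log2 units. Just outside the groups lay formerly obese Mouse_152 at 10.81, next to the lowest Il1b-high tumour at 11.09, and formerly obese Mouse_146 at 9.55, next to the highest Il1b-low tumour at 9.39, so the levels run on with no gap at either edge. The plot of Il1b levels by tumour shows this run.

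**Figure D1:**
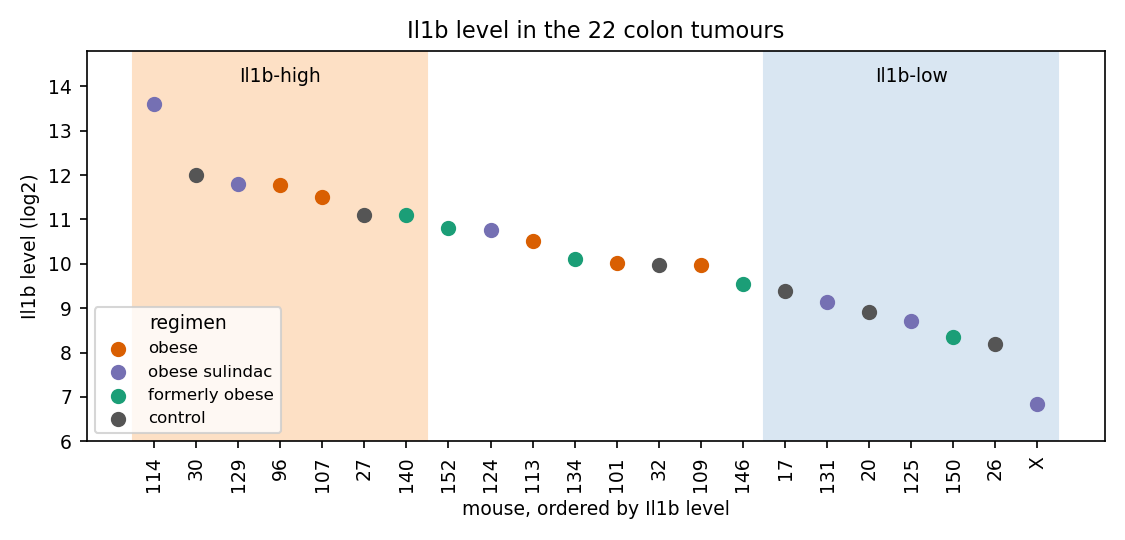
Il1b level (vertical axis, log2) of each of the 22 tumours, ordered along the horizontal axis by that level and labelled by mouse number, with colours for the regimen. The shaded Il1b-high tumours span 11.09 to 13.61 and the shaded Il1b-low tumours 6.83 to 9.39, and all but the obese regimen have tumours in both.

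The regimens were spread over both groups. Il1b-high tumours came from 2 obese sulindac, 2 obese, 1 formerly obese and 2 control mice, and Il1b-low tumours from 3 obese sulindac, 0 obese, 1 formerly obese and 3 control mice. An exact two-sided test of this 2 by 4 table gave p = 0.767, so no tie of the groups to a regimen was detectable in 14 tumours. Il1b averaged 10.14 ± 2.42 in obese sulindac (n = 6), 10.76 ± 0.84 in obese (n = 5), 9.98 ± 1.10 in formerly obese (n = 5) and 9.93 ± 1.42 in control tumours (n = 6; all SD). The obese tumours had the narrowest spread, and the obese sulindac tumours the widest.

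Of all 22202 other probe sets, 2 rose in Il1b-high tumours and 0 fell at a Benjamini-Hochberg adjusted p under 0.05 (limma), which is 0.00901% and 0% of those tested. At an unadjusted p under 0.05 limma counted 650 higher (2.93%) and 722 lower (3.25%), a split that became 807 higher and 536 lower once each array was centred on its median. At 1 log2 unit or more, 176 probe sets lay higher (0.793%) and 172 lower (0.775%). For 19 probe sets every Il1b-high tumour lay above every Il1b-low tumour (0.0856%), and for 12 every one lay below (0.054%). Over all probe sets the median difference was -0.01, and 47.9% of them lay higher in Il1b-high tumours; these shares are the background for each list below. The 41 gene lists used here group genes by pathway or cell type, and 673 of their 733 entries had a named probe set. Some genes, such as Cxcr2 and Hpgd, stand in more than 1 list and are counted in each. A difference is Il1b-high minus Il1b-low in log2 units, with its standard error. Besides genes so marked below, Il18, Ppbp, Cxcl15, Cxcr1, Nr4a1, Klf4, Selp, Grem1 and Mmp3 were picked after the values were seen. So were Hk2, Vegfa, Reg3b, Reg3g, Lcn2, Cdx2, Krt14, Hcar2, Clec4d, Clec4e, Asprv1, Cd177, Cd80 and Lilrb4a.

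Cxcr2, the receptor through which neutrophils follow CXC chemokines, rose. Its level was 7.05 at the lowest, 8.01 at the median and 8.76 at the highest in Il1b-high tumours, against 5.42, 6.08 and 6.57 in Il1b-low tumours. The groups did not overlap, and the difference was 1.92 ± 0.26 (adjusted p = 0.0226, limma), a 3.79-fold higher level. In the 8 tumours between, Cxcr2 lay from 6.16 to 8.04, across the gap. Rab20, a small GTPase of the Rab family that directs membrane traffic, also rose: its levels were 6.97, 7.34 and 7.65 (lowest, median, highest) in Il1b-high tumours, against 6.11, 6.52 and 6.59 in Il1b-low tumours. All 7 Il1b-high tumours again lay above all 7 Il1b-low ones, and the difference was 0.91 ± 0.12 (adjusted p = 0.0226). Both calls hang on few tumours. Without the 5 sulindac-treated ones the adjusted p was 0.694 for Cxcr2 and 1 for Rab20, and leaving out any 1 of control Mouse_17, Mouse_20, Mouse_26, Mouse_27 and Mouse_30, obese Mouse_96 and obese sulindac Mouse_129 and Mouse_X left no gene called. With obese sulindac Mouse_125 or Mouse_131 left out 1 gene, Cxcr2, was called, and with formerly obese Mouse_150 left out 4 were. With the 5 or the 11 tumours at each end of the ranking in place of 7, 0 genes were called. The difference of Cxcr2 lay between 1.32 and 2.22 and that of Rab20 between 0.69 and 0.97 over the 26 other ways of forming and fitting the groups.

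The next 3 genes by p on the higher side, Trem1, Socs3 and Cxcl1, did not overlap between the groups but did not pass the adjusted threshold. Trem1, a receptor on neutrophils and monocytes that amplifies inflammatory signals, had levels of 7.29, 8.51 and 10.51 (lowest, median, highest) in Il1b-high tumours, against 6, 6.40 and 7.01 in Il1b-low tumours. Its difference was 2.24 ± 0.36 (adjusted p = 0.0947, limma). Socs3, a feedback inhibitor of cytokine signalling through STAT proteins, had 8.67, 8.98 and 9.91 in Il1b-high tumours, against 6.58, 7.17 and 8.62 in Il1b-low tumours, a difference of 1.73 ± 0.29 (adjusted p = 0.0958). Cxcl1 is described with the chemokines below. In the other direction Bcas1 had 6.01, 7.32 and 8.43 in Il1b-high tumours, against 8.77, 9.13 and 10.41 in Il1b-low tumours, with no overlap and a difference of -2.09 ± 0.33 (adjusted p = 0.0852). Leaving out olfactory receptors, predicted genes and unnamed probe sets, the next by p on that side were Hsd17b13, an enzyme of lipid droplets (-1.67 ± 0.38), Rdh14, a retinol dehydrogenase (-0.76 ± 0.18), the zinc finger gene Zfp318 (-0.62 ± 0.15) and Enpp6, a choline-releasing phosphodiesterase (-0.62 ± 0.15), with adjusted p of 0.412 to 0.422.

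**Figure D2:**
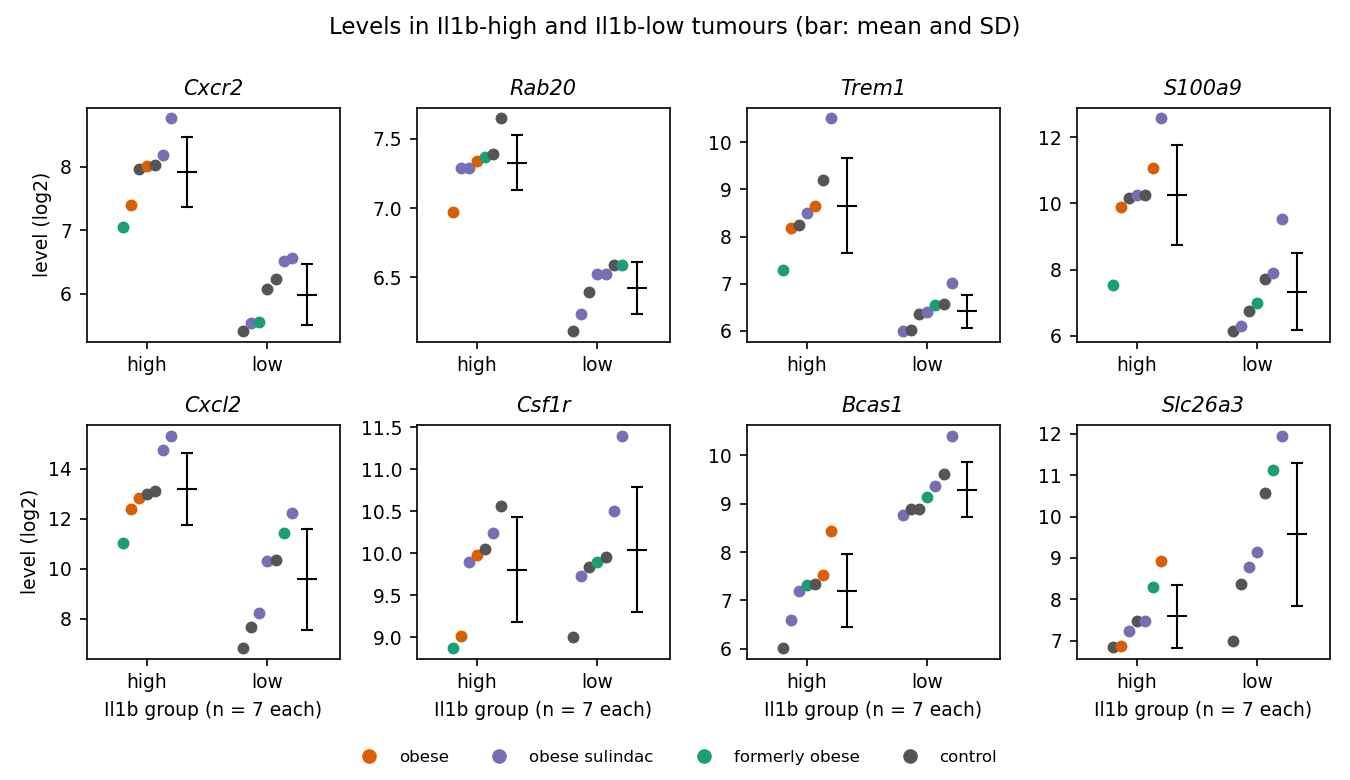
Levels (vertical axes, log2) of 8 genes in the 7 Il1b-high tumours at the left and the 7 Il1b-low tumours at the right of each panel; points are tumours coloured by regimen and bars give mean and SD. Cxcr2, Rab20 and Trem1 do not overlap between the groups, Bcas1 does not overlap in the other direction, and the levels of Csf1r overlap throughout.

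The chemokines that call neutrophils lay mostly higher, while Cxcl15 and the receptor Cxcr1 lay near 0. All 8 measured genes of that list, 6 ligands and the receptors Cxcr1 and Cxcr2, had a difference above 0, with a median of 2.20 against -0.01 over all probe sets; 6 of 8 had an unadjusted p under 0.05, and 1, Cxcr2, rose. Cxcl1, Cxcl2 and Cxcl3 are near neighbours on chromosome 5 and encode closely related ligands of Cxcr2. Since they lay higher together, the stretch just before the annotated start of each is shown, from the RefSeq promoter table on build GRCm38.p6, plus strand, 5′ to 3′; capitals mark matches to a simple form of the kappaB site that NF-kB binds, GGGA and TTCC with any 2 bases between, searched on both strands.
Cxcl1, chr5:90891115-90891244: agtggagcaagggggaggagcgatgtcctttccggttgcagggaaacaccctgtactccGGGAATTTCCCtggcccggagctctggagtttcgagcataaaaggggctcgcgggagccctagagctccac
Cxcl2, chr5:90903769-90903898: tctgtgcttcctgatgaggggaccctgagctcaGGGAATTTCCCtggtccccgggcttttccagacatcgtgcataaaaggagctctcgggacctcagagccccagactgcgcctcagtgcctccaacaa
Cxcl3, chr5:90785971-90786100: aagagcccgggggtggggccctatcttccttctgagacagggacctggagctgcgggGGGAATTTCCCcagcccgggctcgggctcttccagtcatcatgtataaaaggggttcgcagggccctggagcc
In each stretch 2 overlapping matches, 1 per strand, form the capitals, and the first begins 71 bases before the start in Cxcl1, 97 in Cxcl2 and 73 in Cxcl3. Of 32851 RefSeq promoter windows of 300 bases, 482 (1.47%) hold such a match, and so do 441 of 27025 genes (1.63%). Of the 5 ligand genes of the list with a window 3 hold one, and the windows of Il1b and Cxcr2 hold none. A second motif was searched too, the AP-1 site, TGA and TCA with any 1 base between. It was found in 1 of the 5 ligand genes and in 8.97% of all genes. These matches describe letters and not binding.

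Cxcl2 had levels of 11.04, 12.99 and 15.32 (lowest, median, highest) in Il1b-high tumours, against 6.83, 10.30 and 12.23 in Il1b-low tumours, and a difference of 3.62 ± 0.83 (adjusted p = 0.418, limma). It had the largest difference of the list, and 6 of 7 Il1b-high tumours lay above every Il1b-low one. Cxcl1 had 7.73, 8.89 and 10.37 in Il1b-high tumours, against 5.31, 6.02 and 7.66 in Il1b-low tumours, with no overlap and a difference of 2.47 ± 0.43 (adjusted p = 0.13). Cxcl3 had 6.70, 8.71 and 11.33 in Il1b-high tumours, against 5.06, 6.41 and 7.65 in Il1b-low tumours, a difference of 2.55 ± 0.59 (adjusted p = 0.418). Cxcl5, a ligand made mainly by epithelium, differed as much, by 2.55 ± 0.81, but overlapped widely, at 9.58 to 13.28 in Il1b-high against 6.53 to 13.12 in Il1b-low tumours. The platelet ligand Ppbp differed by 0.95 ± 0.41, while Cxcl15 and Cxcr1 lay near 0, at 0.09 and 0.06. The mean level over the list was 7.24, 8.68 and 9.32 (lowest, median, highest) in Il1b-high tumours, against 5.58, 7.02 and 7.53 in Il1b-low tumours. The single Il1b-high tumour that overlapped was formerly obese Mouse_140, the lowest of its group.

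Neutrophil markers also lay mostly higher. Of 28 measured markers, 24 lay higher and 4 lower, with a median difference of 1.16; 16 had an unadjusted p under 0.05, all higher, against 2.93% of all probe sets. S100a9, a calcium-binding protein that fills the neutrophil cytoplasm, had levels of 7.53, 10.24 and 12.57 (lowest, median, highest) in Il1b-high tumours, against 6.15, 7 and 9.52 in Il1b-low tumours, a difference of 2.91 ± 0.64 (adjusted p = 0.356, limma). Its partner S100a8 had 6.44, 8.36 and 10.57 in Il1b-high tumours, against 4.90, 6.18 and 8.18 in Il1b-low tumours, a difference of 2.47 ± 0.58. For both, most Il1b-high tumours lay above every Il1b-low one, 6 of 7 for S100a9 and 5 of 7 for S100a8. Csf3r, the receptor for the neutrophil growth factor G-CSF, differed by 1.89 ± 0.46, and Lrg1, a secreted granule glycoprotein, by 1.96 ± 0.39. Hcar2, a niacin and ketone receptor (2.90 ± 0.65), Clec4d and Clec4e, lectins that sense microbial glycolipids (1.96 ± 0.48 and 2.38 ± 0.64), Acod1, which makes itaconate (2.70 ± 0.96), and Retnlg, a resistin-like protein of neutrophils (2.64 ± 0.72), stood near them. Below 0 were Asprv1 (-0.60) and Cd177 (-0.29), besides Mpo and Camp described next, all with an unadjusted p over 0.05.

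Granule genes of the same list, which neutrophils transcribe mainly while still in the bone marrow, were uneven. The collagenase Mmp8 differed by 1.10 ± 0.45, the gelatinase Mmp9 by 0.73 ± 0.45 and lactoferrin Ltf by 0.24 ± 0.53, the last 2 with an unadjusted p over 0.05. Mpo (myeloperoxidase) lay at 4.58 to 5.18 in Il1b-high and 4.56 to 5.08 in Il1b-low tumours, with a difference of -0.07 ± 0.12. Elane, Camp and Ngp differed by 0.07 ± 0.14, -0.09 ± 0.15 and 0.03 ± 0.17, and their levels were at or below 5.19 in every one of the 14 tumours. Like those of Mpo, these levels lay near the low end of the arrays, whose medians were 6.67 to 6.83. Their small differences therefore cannot show equal expression. These 7 genes, Acod1 and Retnlg were picked after the values were seen. Ly6g, the usual surface marker of mouse neutrophils, was not analysed here. The mean over the neutrophil list was 7.10, 7.88 and 9.36 (lowest, median, highest) in Il1b-high tumours, against 6.28, 6.71 and 7.49 in Il1b-low tumours, and formerly obese Mouse_140 was again the 1 that overlapped. Without obese sulindac Mouse_114 and Mouse_X, at both ends of the Il1b range, 23 of 28 markers still lay higher, 13 with an unadjusted p under 0.05, with a median difference of 0.97.

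Il1b-high tumours might be called myeloid-inflamed and Il1b-low ones quiet, and that name was checked against macrophage and monocyte markers too. Of 28 measured, 17 lay higher and 11 lower, the median difference was 0.16, and 3 higher and 1 lower had an unadjusted p under 0.05. The defining markers overlapped throughout: Csf1r, the receptor that macrophages need to live, lay at 8.87 to 10.56 in Il1b-high and 9 to 11.40 in Il1b-low tumours, with a difference of -0.24 ± 0.34 (adjusted p = 0.951, limma). Adgre1 (F4/80), the complement gene C1qa and lysozyme Lyz2 differed by 0.16 ± 0.23, 0.15 ± 0.26 and 0.20 ± 0.34. The 95% interval for Csf1r ran from -0.96 to 0.47, and that for Adgre1 from -0.33 to 0.65. Those above 0 with a low p were Arg1 (arginase, 1.87 ± 0.53), Cd14, the co-receptor for bacterial lipopolysaccharide (1.45 ± 0.39), and Itgam (CD11b, 0.87 ± 0.27), of which Cd14 and Itgam are also found on neutrophils. Mertk, a receptor with which resident macrophages take up dead cells, was the 1 below 0 (-0.78 ± 0.28). Mean levels of the macrophage list were 8.73, 9.14 and 9.63 (lowest, median, highest) in Il1b-high tumours, against 8.29, 8.93 and 9.71 in Il1b-low tumours. A low p was thus found for 16 of 28 neutrophil markers, all higher, against 2.93% of all probe sets. Of the 28 macrophage and monocyte markers it was found for 3 higher and 1 lower, against 2.93% and 3.25%. The lists are not alike, since the neutrophil list also holds genes such as Trem1 that monocytes carry. These counts therefore do not tell the cell types apart. The defining macrophage markers do not bear out a general myeloid name. Cd68 was not analysed here.

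**Figure D3:**
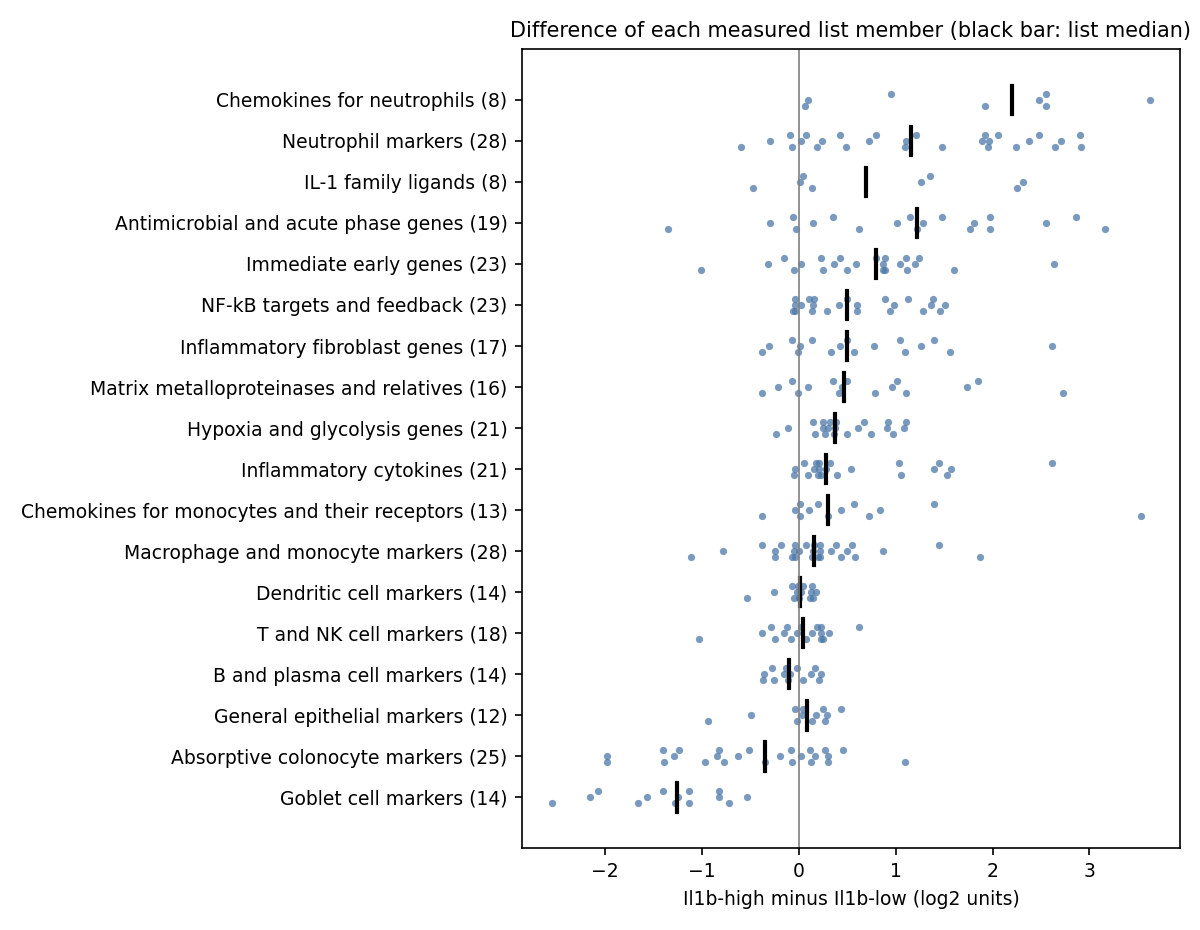
Difference of each measured member (points) of 18 gene lists, as Il1b-high minus Il1b-low in log2 units on the horizontal axis, with the number measured in brackets and a black bar at each list's median. The medians are 2.20 for neutrophil chemokines and 1.16 for neutrophil markers at the top, near 0 for macrophage, dendritic, T, B and general epithelial markers, and -1.26 for goblet cell markers at the bottom.

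Lymphoid and other leukocyte lists sat at the background. T and NK cell markers (18 measured) had a median difference of 0.05, B and plasma cell markers (14) -0.11, dendritic cell markers (14) 0.01, mast cell markers (10) 0.08 and eosinophil and basophil markers (8) -0.13. Not a single member of these 5 lists had an unadjusted p under 0.05. Cd3e, a chain of the T cell receptor complex, lay at 6.85 to 10.18 in Il1b-high and 7.51 to 11.21 in Il1b-low tumours, and Cd79a of the B cell receptor at 5.41 to 6.43 in Il1b-high and 3.74 to 8.58 in Il1b-low tumours. Ido1, the interferon-induced tryptophan enzyme, spanned 5.09 to 11.67 in Il1b-high and 4.83 to 12.31 in Il1b-low tumours with a difference of -0.03 ± 1.19, and Cd274 (PD-L1) differed by 0.72 ± 0.54. Both are in the list of 14 immune checkpoint genes, of which 10 lay higher (median 0.14). In that list 2 genes (14.3%, against 2.93% of all probe sets) had an unadjusted p under 0.05. These were Cd80 (0.97) and Lilrb4a (1.07), both higher.

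Within the IL-1 family, 8 other ligands were measured, and 4 of them lay higher in Il1b-high tumours with an unadjusted p under 0.05. In all 7 lay above 0, but Il1f6, Il1f8 and Il1f10 only by 0.01, 0.04 and 0.13. Il1a, whose product binds the same receptor, had levels of 6.92, 7.37 and 10.49 (lowest, median, highest) in Il1b-high tumours, against 4.52, 5.41 and 6.36 in Il1b-low tumours. The groups did not overlap, and the difference was 2.31 ± 0.49 (adjusted p = 0.276, limma). The IL-36γ gene, listed as Il1f9, differed by 2.25 ± 0.77, the antagonist Il1rn by 1.36 ± 0.57 and the alarmin Il33 by 1.26 ± 0.42. Il1rn lay at 12.24 to 15.50 in Il1b-high and 10.60 to 13.55 in Il1b-low tumours. Il18 was the 1 ligand below 0, at -0.47 ± 0.62.

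Of 15 receptors, inhibitors and adaptors, 12 lay higher with a median of only 0.10. The decoy receptor Il1r2, itself a neutrophil gene, differed by 1.11 ± 0.31 and the adaptor Myd88 by 0.56 ± 0.23. The signalling receptor Il1r1 lay at 9.79 to 11.88 in Il1b-high and 10.16 to 11.73 in Il1b-low tumours, a difference of 0.09 ± 0.30 that turned to -0.005 with the 11 highest set against the 11 lowest tumours. Inflammasome genes were split, 9 higher and 8 lower of 17. The sensor Nlrp3 had 6.08, 7.37 and 10.77 (lowest, median, highest) in Il1b-high tumours, against 5.16, 5.40 and 6.41 in Il1b-low tumours, a difference of 2.42 ± 0.59 (adjusted p = 0.422, limma). Casp1, which cuts the precursor, differed by 0.41 ± 0.35, its adaptor Pycard by -0.64 ± 0.42 and Txnip by -0.74 ± 0.27. Of the genes that sense, cut and receive, Nlrp3 had an unadjusted p under 0.05, and Casp1 and Il1r1 did not. Nor did the other sensors Nlrc4, Aim2, Nlrp1a, Nlrp1b, Nlrp6 and Mefv.

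NF-kB targets and feedback genes lay higher in 19 of 23 cases, with a median of 0.50, and 7 had an unadjusted p under 0.05. The nuclear co-regulators Nfkbiz and Bcl3 differed by 1.36 ± 0.26 and 1.46 ± 0.29 (adjusted p = 0.269 and 0.272, limma), and in both 6 of 7 Il1b-high tumours lay above every Il1b-low one. Genes that restrain the pathway were uneven. Zc3h12a, an RNase that destroys cytokine messengers, differed by 1.51 ± 0.40, Tnfaip3 by 1.39 ± 0.50 and the inhibitor Nfkbia by 0.95 ± 0.34, while Nfkbie, Nfkbib and Tnip1 differed by 0.15 ± 0.29, 0.11 ± 0.17 and -0.04 ± 0.18; all but Zc3h12a were picked after the values were seen. Ier3, an early stress gene, differed by 1.28 ± 0.26. Immediate early genes also lay higher in 19 of 23, with a median of 0.79, 8 higher and 1 lower at an unadjusted p under 0.05. Junb had 10.98, 11.70 and 12.43 (lowest, median, highest) in Il1b-high tumours, against 9.88, 10.40 and 10.95 in Il1b-low tumours, with no overlap and a difference of 1.24 ± 0.22 (adjusted p = 0.13). The orphan receptors Nr4a3 and Nr4a1 differed by 2.63 ± 0.60 and 1.61 ± 0.62, and Klf4, a factor of differentiated epithelium, by -1.01 ± 0.40.

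Among inflammatory cytokines 19 of 21 lay higher, with a median of 0.28 and 7 at an unadjusted p under 0.05. Osm (oncostatin M), a cytokine of neutrophils and monocytes that acts on stroma, had 5.89, 6.66 and 8.17 (lowest, median, highest) in Il1b-high tumours, against 5.05, 5.25 and 5.66 in Il1b-low tumours, with no overlap and a difference of 1.44 ± 0.29 (adjusted p = 0.272, limma). The related Il11, Il6 and Lif differed by 2.61 ± 1.09, 1.57 ± 0.51 and 1.40 ± 0.42, Inhba (activin A) by 1.53 ± 0.54 and Tnf by 1.03 ± 0.46. Il11 was the most scattered, at 5.74 to 12.85 in Il1b-high and 4.99 to 10.62 in Il1b-low tumours. Csf3, which encodes G-CSF, lay at 4.39 to 5.93 in Il1b-high and 4.22 to 5.42 in Il1b-low tumours, a difference of 0.32 ± 0.27. Of monocyte chemokines and receptors, 11 of 13 lay higher with a median of 0.30. Ccl3, an attractant for monocytes that neutrophils make too, had 10.38, 13.03 and 15.86 in Il1b-high tumours, against 7.51, 9.83 and 11.97 in Il1b-low tumours, a difference of 3.53 ± 0.81 (adjusted p = 0.418). Its neighbour in function Ccl4 differed by 1.40 ± 0.44 and Ccl7 by 0.72 ± 0.26, while Ccl2, the main monocyte attractant, differed by 0.57 ± 0.40 with overlapping levels.

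Genes of inflammatory fibroblasts and matrix-degrading enzymes lay mostly higher, while the wider fibroblast and smooth muscle lists had medians near 0. Of 20 fibroblast and matrix genes 13 lay higher (median 0.14, 1 at an unadjusted p under 0.05), and of 12 smooth muscle genes 4 did (median -0.09). In the smooth muscle list 1 gene, Hhip (-1.44), had an unadjusted p under 0.05. Of 10 enteric neuron and glia genes 6 lay higher (median 0.10). In that list 2 genes (20%, against 3.25% of all probe sets) had an unadjusted p under 0.05, both lower. Of 17 genes of inflammatory fibroblasts 13 lay higher (median 0.50, 7 at an unadjusted p under 0.05), among them Has2, which makes hyaluronan (0.77 ± 0.32), the BMP antagonist Grem1 (1.56 ± 0.72) and the chitinase-like Chil1 (1.10 ± 0.43). Il33, Il11 and Lif are also among these 7 and were counted above with the IL-1 ligands or the cytokines. Of 16 matrix metalloproteinases and relatives 12 lay higher (median 0.47, 5 at an unadjusted p under 0.05). The collagenase Mmp13 had 11.70, 15.09 and 16.39 (lowest, median, highest) in Il1b-high tumours, against 10.08, 10.32 and 14.52 in Il1b-low tumours, a difference of 2.72 ± 0.87 (adjusted p = 0.561, limma). Mmp10, Mmp3 and Mmp12 differed by 1.85 ± 0.65, 1.73 ± 0.70 and 1.11 ± 0.42. Selp (P-selectin), with which vessels catch passing leukocytes, differed by 1.61 ± 0.62 and was the 1 of 16 endothelial genes with an unadjusted p under 0.05.

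Genes of the cyclooxygenase and oxygen pathways were looked at next. Ptgs2, the inducible cyclooxygenase that sulindac inhibits as a protein, had 9, 11.09 and 12.74 (lowest, median, highest) in Il1b-high tumours, against 7.68, 9.01 and 10.77 in Il1b-low tumours, a difference of 2.15 ± 0.52 (adjusted p = 0.422, limma). Hpgd, which breaks prostaglandins down, lay the other way, at 8.51 to 13.05 in Il1b-high and 10.00 to 14.69 in Il1b-low tumours, by -1.98 ± 0.79. Of all 22 genes of prostaglandin and leukotriene metabolism, Ptgs2 and Hpgd included, 11 lay higher and 11 lower with a median of 0.02. Besides Ptgs2 and Hpgd, only Ptgds had an unadjusted p under 0.05, with a difference of -0.51 ± 0.23. Of 21 hypoxia and glycolysis genes 19 lay higher, with small differences (median 0.37), and 11 had an unadjusted p under 0.05. They included Pfkfb3, a switch of glycolysis (0.97 ± 0.29), adrenomedullin Adm (1.11 ± 0.40), hexokinase Hk2 (0.92 ± 0.42), Vegfa, which draws blood vessels (0.74 ± 0.28), and the glucose transporter Slc2a1 (0.61 ± 0.19). Gapdh, often taken as steady, was at 17.33 to 17.66 in Il1b-high and 17.11 to 17.35 in Il1b-low tumours, a difference of 0.27 ± 0.10.

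Antimicrobial and acute phase genes, most of them epithelial, lay higher in 15 of 19 cases, with a median of 1.22 and 8 at an unadjusted p under 0.05. Nos2, the inducible nitric oxide synthase, had 8.37, 10.85 and 11.87 (lowest, median, highest) in Il1b-high tumours, against 5.97, 7.34 and 10.99 in Il1b-low tumours, a difference of 2.55 ± 0.74 (adjusted p = 0.561, limma). The bactericidal lectins Reg3b and Reg3g differed by 3.16 ± 1.25 and 2.86 ± 1.15 but ranged widely within each group, with Reg3b at 10.25 to 17.18 in Il1b-high and 6.03 to 15.25 in Il1b-low tumours. Duoxa2, needed by an epithelial oxidase, differed by 1.81 ± 0.64, the lipopolysaccharide-binding protein Lbp by 1.28 ± 0.44 and transglutaminase Tgm2 by 1.48 ± 0.48. Lcn2, an iron-trapping protein of both neutrophils and epithelium, had 14.20 to 18.10 in Il1b-high and 11.07 to 18.13 in Il1b-low tumours.

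Goblet cell genes were the clearest group on the lower side. All 14 measured lay lower in Il1b-high tumours, by 0.54 to 2.55 log2 units with a median of -1.26, and 4 had an unadjusted p under 0.05, against 3.25% of all probe sets; none passed the adjusted threshold. That count of 4 was unsteady: it was 12 without obese Mouse_107, 10 without control Mouse_26, 2 without Mouse_114 and Mouse_X or with 11 tumours a side, and 0 without the sulindac-treated tumours. Clca1, a secreted mucus-shaping protease, had 9.52, 10.89 and 14.60 (lowest, median, highest) in Il1b-high tumours, against 11.66, 14.22 and 17.46 in Il1b-low tumours, a difference of -2.55 ± 0.96 (adjusted p = 0.677, limma). Klk1, Fcgbp and Zg16, the last a lectin that keeps bacteria off the mucus, differed by -2.16 ± 0.69, -1.66 ± 0.73 and -1.56 ± 0.59. Muc2, the main gel-forming mucin, differed less, by -0.72 ± 0.42, at 15.49 to 18.38 in Il1b-high and 16.41 to 18.18 in Il1b-low tumours. The list means of the groups overlapped, at 9.90 to 13.58 in Il1b-high and 10.64 to 13.96 in Il1b-low tumours, and only 3 Il1b-high tumours lay below every Il1b-low one.

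Absorptive colonocyte markers were mixed, 9 higher and 16 lower of 25, with a median of -0.35 and 5 lower at an unadjusted p under 0.05. The chloride exchanger Slc26a3 had 6.84, 7.47 and 8.93 (lowest, median, highest) in Il1b-high tumours, against 7, 9.15 and 11.96 in Il1b-low tumours, a difference of -1.98 ± 0.64 (adjusted p = 0.576, limma). The sulfate transporter Slc26a2, the water channel Aqp8 and the sodium channel subunit Scnn1g differed by -1.41 ± 0.49, -1.39 ± 0.51 and -0.85 ± 0.33. The list's median was 0.07 with the 11 highest set against the 11 lowest tumours, so its direction depends on where the groups end. Markers shared by all epithelium lay close together, with a median of 0.09 over 12 genes and no unadjusted p under 0.05: Epcam was at 16.85 to 17.43 in Il1b-high and 16.67 to 17.37 in Il1b-low tumours and Cdh1 (E-cadherin) at 17.29 to 17.92 in Il1b-high and 17.34 to 17.76 in Il1b-low tumours. Cdx2, a factor of intestinal identity, scattered from 5.92 to 11.87 in Il1b-high and 7.11 to 13.64 in Il1b-low tumours. The WNT target and stem cell marker Lgr5 (0.01 ± 0.93) and the proliferation gene Mki67 (-0.03 ± 0.23) differed by less than their standard errors. Of 17 squamous and anal epithelium genes 2 had an unadjusted p under 0.05, both higher, with Krt14 at 7.56 to 12.93 in Il1b-high and 6.06 to 9.93 in Il1b-low tumours; the part of such tissue in the other differences was not tested.

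**Figure D4:**
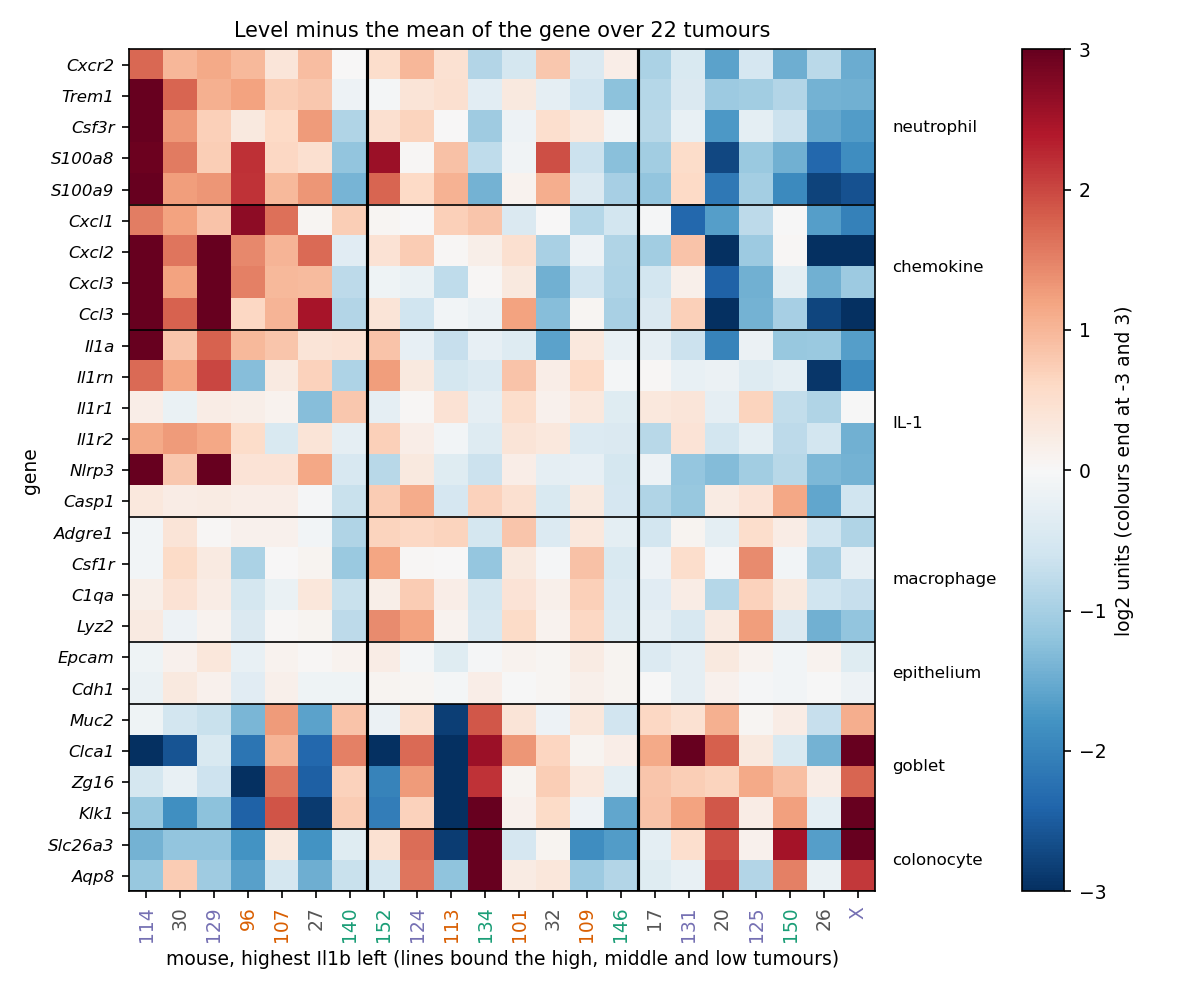
Level of 27 genes (rows, by role) in each of the 22 tumours (columns, highest Il1b at the left, mouse number coloured by regimen: purple obese sulindac, orange obese, green formerly obese, grey control), as log2 units above (red) or below (blue) the mean of the gene. Neutrophil and chemokine rows are mostly red in the 7 columns at the left and blue in the 7 at the right, with formerly obese Mouse_140 paler, while macrophage and epithelium rows show no such order.

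The comparison was repeated inside each regimen that held both groups, where a few tumours stand on each side and no test was made. Cxcr2 differed by 2.26 between 2 Il1b-high and 3 Il1b-low obese sulindac tumours, by 2.08 between 2 and 3 control tumours and by 1.49 between 1 and 1 formerly obese tumour. The neutrophil list had a median difference of 1.54 in obese sulindac, 0.16 in formerly obese and 1.23 in control tumours. For the neutrophil chemokines the medians were 2.60 in obese sulindac, -0.11 in formerly obese and 1.96 in control tumours, and for goblet cell markers -1.59 in obese sulindac, 0.27 in formerly obese and -1.96 in control tumours. These 3 lists thus lay on the same side in obese sulindac and control tumours. In the formerly obese pair, Mouse_140 against Mouse_150, the neutrophil median kept its sign but was smaller. The chemokine and goblet medians had the other sign there. In that pair Cxcl2 differed by -0.38, Csf3r by -0.26 and Muc2 by 0.64, while Ptgs2 differed by 3.67. The macrophage list had medians of 0.00 in obese sulindac, -0.41 in formerly obese and 0.68 in control tumours. With regimen as a term in the fit, 24 of 28 neutrophil markers and 0 of 14 goblet markers lay higher, and 1 gene, Cxcr2, was called. Obese tumours had none in the Il1b-low group, so nothing could be compared within that regimen.

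Taking Il1b as a continuous level over all 22 tumours, with no groups, gave more calls: 37 genes rose with Il1b (0.167% of those tested) and 3 fell (0.0135%) at an adjusted p under 0.05 (limma). Of these 40, 13 were in the neutrophil marker or chemokine lists and 4 in the NF-kB list. Trem1 led with 0.68 log2 units per unit of Il1b (adjusted p = 1.61e-06), followed by Cxcr2 at 0.55 (adjusted p = 0.000245), Mrgpra2b at 0.79 (adjusted p = 0.000245), S100a9 at 0.94 (adjusted p = 0.000316) and Il1a at 0.72 (adjusted p = 0.000316). Mrgpra2b and its near-identical copy Mrgpra2a, G protein-coupled receptors found on mouse neutrophils, may share signal on the array. Ccl3 and Cxcl2 were the steepest of those named, at 1.08 and 1.09 units per unit of Il1b. Also called were Socs3, Osm, Cebpb, a transcription factor of myeloid cells and acute phase genes, and the lipid droplet gene Hilpda, while Bcas1 (-0.58 per unit, adjusted p = 0.00481) and Capn9, a protease of the digestive tract (-0.33 per unit), fell. Genes named here outside the lists were picked after the values were seen. Without obese sulindac Mouse_114 and Mouse_X, which hold both ends of the range, 7 calls were left (Trem1, Cxcr2, Mrgpra2b, Mrgpra2a, S100a9, Il1a and Cxcl1), and all 40 kept their sign. Without formerly obese Mouse_134, which lay between the groups, 44 rose and 6 fell. Rab20, called between the groups, was not called here.

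**Figure D5:**
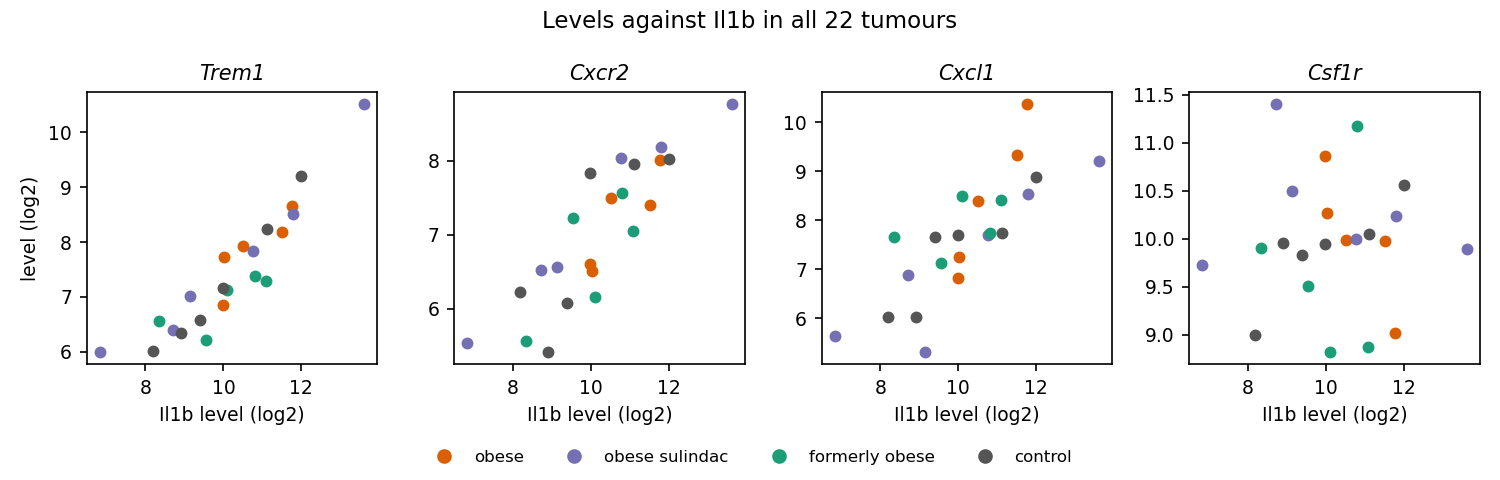
Level (vertical axes, log2) of Trem1, Cxcr2, Cxcl1 and Csf1r against the level of Il1b (horizontal axes, log2) in the 22 tumours, coloured by regimen. Trem1 is at 10.51 in Mouse_114, which has the highest Il1b, and lies between 6 and 7.01 in Il1b-low tumours, while Csf1r shows no run with Il1b.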

How the data were processed

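Each tumour's total RNA was made into biotin-labelled cDNA (GeneChip WT PLUS) for a Clariom S array, per the labels' protocols. The deposited table holds 1 processed level per probe set and array. The authors' software was Transcriptome Analysis Console 4.0, per the submitters' processing notes; no source used here gives background correction, normalization or log base, and the deposited values were read as log2 from their range and left as they are. Genes were named for 19572 of 22203 probe sets through the platform annotation (2631 unnamed), the probe set with the highest mean standing for a gene.

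Tumours were ranked by Il1b, and the 7 highest were compared with the 7 lowest with limma 3.58.1 in R 4.3.3 (moderated, two-sided, Benjamini-Hochberg over 22202 probe sets), with no low-value filter and no covariate. The test was tried on simulated data first. The regimen counts were compared with an exact test. No label says that mice came from separate litters or batches, so p-values measure only the spread between these tumours. Motif searches used Python 3.11.15. The Il1b rule, the gene lists and the tests were chosen with earlier results of these data known. Named genes are, in each direction, the 12 with the largest difference among those called, filled up to 5 by p (olfactory receptors, predicted genes and unnamed probe sets are not named), the 4 members of each described list with the smallest p, and a set of IL-1, leukocyte and epithelial genes; genes called in the fit on the level of Il1b and 35 others were added after values were seen. Alternatives were regimen as a term, all 22 tumours, Il1b as a level, 5 or 11 tumours a side, the brighter probe sets, quantile normalization, centred arrays, a trended robust fit, array weights, no sulindac-treated tumours, and each tumour left out.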

Additional observations from a re-analysis of the deposited data

Results flagged for a closer look

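Within a group of 7 tumours, a tumour whose gap to its nearest neighbour takes up most of the group's range stands apart. This was looked at on both sides of 300 gene and group combinations. Chance alone flags about 5% of such groups, and 17 were found, which is close to that share. No single flag below is therefore read as a result, and some of the genes were picked after the values were seen. Il1b, which formed the groups, was left out.

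In Il1b-high tumours, obese sulindac Mouse_114 stood apart with the highest Il1a (10.49, the next at 8.30) and Ngp (5.19, the next at 4.41). Formerly obese Mouse_140 stood apart with the highest Il33 (12.92, the next at 11.59) and Nr4a1 (13.38, the next at 10.23) and with the lowest Casp1 (12.35, the next at 12.99), Cxcl5 (9.58, the next at 11.91) and Adgre1 (7.18, the next at 7.99). Control Mouse_27 had the highest Reg3g (17.20, the next at 13.05), control Mouse_30 the highest Litaf (13.23, the next at 12.64), obese sulindac Mouse_129 the lowest Bcl3 (12.81, the next at 13.61) and obese Mouse_96 the lowest Elf3 (12.77, the next at 13.83).

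In Il1b-low tumours, obese sulindac Mouse_131 stood apart with the highest Ccl4 (6.75, the next at 5.60), Ltc4s (6.24, the next at 5.27) and Retnlg (7.68, the next at 5.72). Control Mouse_20 had the highest Cdx2 (13.64, the next at 9.85), control Mouse_26 the lowest Krt19 (15.63, the next at 16.18) and obese sulindac Mouse_X the lowest Dusp5 (7.03, the next at 8.18).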

How the results depend on the processing

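The counts of called genes were small and depended on the setting. Against 2 higher and 0 lower, regimen as a term or a trended robust fit gave 1 higher, 5 or 11 tumours a side gave 0, leaving out sulindac-treated tumours gave 0, and Il1b as a level gave 37 higher and 3 lower. Leaving out each of the 14 tumours gave 0 to 4 higher and 0 to 1 lower. Some settings were added after seeing the data: without obese sulindac Mouse_114 and Mouse_X the groups gave 0 higher and the level of Il1b 7, and without formerly obese Mouse_134 the level of Il1b gave 44 higher and 6 lower and a fit of 3 groups over all other tumours 3 higher and 1 lower. The cause was not tested. With fewer tumours the fits also have less to estimate the spread from. The regimen mix gave exact p = 0.524 with 5 and 0.887 with 11 a side. Formerly obese Mouse_134 fell in neither group, so the comparison of the 14 tumours does not use it. No paired analysis was possible because no mouse number recurs between regimens.

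Over 150 named genes and 29 settings (4324 combinations), 4103 kept direction and side of the threshold, 93 passed it newly and 34 lost it (12 of Cxcr2, 22 of Rab20). A further 94 turned direction, in 19 genes, most of them with main differences near 0 but Mmp9 with 0.73. Those were, without sulindac-treated tumours, Elf3 -0.068, Csf3 -0.13, Csf1r 0.026, Cd79a 0.40, Cdh1 -0.037, Lgr5 -0.49, Mki67 0.046, Ido1 0.35, Elane -0.037, Ltf -0.11, Nfkbie -0.14 and Ngp -0.091. With 11 a side they were Il1r1 -0.005, Cd3e 0.046, Cd79a 0.10, Lgr5 -0.26, Ido1 0.64, Mpo 0.078, Mmp9 -0.058, Tnip1 0.009 and Ngp -0.07, and with 5 a side Elane -0.074. With regimen as a term they were Cd3e 0.46, Lgr5 -0.40 and Ido1 0.36; with quantile normalization Cdh1 -0.015 and Ido1 0.001; with centred arrays Mki67 0.003 and Ido1 0.003; with array weights Mki67 0.000 and Ido1 0.10. Per unit of Il1b they were Csf1r 0.002, Cd3e 0.14, Cd79a 0.066, Ido1 0.089, Tnip1 0.028 and Mpo 0.014, without Mouse_134 Cd3e 0.14, Cd79a 0.064, Ido1 0.096, Tnip1 0.028 and Mpo 0.014, and without Mouse_114 and Mouse_X Cd79a 0.14, Lgr5 -0.017, Ido1 0.056, Mpo 0.003 and Ngp -0.031. In the groups without those mice they were Lyz2 -0.007, Lgr5 -0.073, Nfkbie -0.07 and Ngp -0.077. Leaving out single tumours moved Cd3e between -0.41 and 0.21, Cd79a between -0.52 and 0.29, Cdh1 between -0.018 and 0.087, Elane between -0.000 and 0.11, Ido1 between -0.62 and 0.67, Il1r1 between -0.048 and 0.30, Lgr5 between -0.47 and 0.56, Mki67 between -0.15 and 0.089, Cxcr1 between -0.056 and 0.15, Ltf between -0.072 and 0.51, Tnip1 between -0.10 and 0.055 and Ngp between -0.12 and 0.085.

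The list medians of neutrophil markers (0.72 to 1.94), neutrophil chemokines (1.55 to 2.55) and goblet markers (-1.72 to -0.84) kept their sign over 26 group settings, in which the count of goblet markers with an unadjusted p under 0.05 ran from 0 to 12; that of absorptive markers ran from -0.74 to 0.07.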

Other observations

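Bag3, a co-chaperone, lay at 12.19 to 13.09 in Il1b-high and 11.41 to 12.18 in Il1b-low tumours, with no overlap and a difference of 0.86 ± 0.16 (adjusted p = 0.178, limma), and Hspa1b, an inducible chaperone, differed by 1.35 ± 0.32; in the tumours between the groups Hspa1b lay at 8.33 to 14.13, beyond the highest Il1b-high tumour at 10.95. Both were picked after the values were seen. Of 21 genes of the unfolded protein response 15 lay higher in Il1b-high tumours (median 0.23), 4 of them with an unadjusted p under 0.05. Of 22 interferon-induced genes 18 lay higher (median 0.27), with 1 unadjusted p under 0.05. Tuft and enteroendocrine markers lay lower, in 9 of 12 and 10 of 13 genes, with medians of -0.32 and -0.36 and no unadjusted p under 0.05. Cell cycle genes (24 measured) and respiratory chain subunits (27 measured) had medians of -0.06 and -0.01.

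Among the 31 probe sets whose groups did not overlap, 5 had no gene name. Dusp5, a phosphatase that switches off the kinase ERK, lay at 9.05 to 11.61 in Il1b-high and 7.03 to 8.71 in Il1b-low tumours, a difference of 1.64. Litaf, a factor induced by lipopolysaccharide, lay at 12.38 to 13.23 in Il1b-high and 11.34 to 12.13 in Il1b-low tumours, a difference of 0.76. Dusp5 and Litaf were also picked after the values were seen, and neither passed the adjusted threshold (adjusted p = 0.311 and 0.272, limma).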
